A study of Mus musculus with 20 samples.

Results

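The 9 genes described here are Hmox1 together with 8 genes of the NRF2 antioxidant pathway: its transcription factor Nfe2l2 (NRF2), the inhibitor Keap1, and the target genes Srxn1, Txnrd1, Slc7a11, Gclm, Gclc and Nqo1. They were chosen by name for one question, whether Hmox1 moved alone or with other NRF2 targets, after its values in the 4 groups had been seen. All 9 were among the 20407 genes tested. Because the level of Hmox1 in each library and its differences between groups were used in the choice, the 9 genes are described and none of their differences carries a P value.

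NRF2 is made continuously and destroyed continuously, because KEAP1 holds it and presents it to a CUL3 ubiquitin ligase. Electrophiles and oxidants modify KEAP1, NRF2 then escapes degradation, pairs with small MAF proteins and binds antioxidant response elements near genes of glutathione, thioredoxin and NADPH metabolism. Hmox1 encodes heme oxygenase-1, which breaks heme down to biliverdin, carbon monoxide and iron, and it is also held down by BACH1, which leaves DNA when it binds heme. In the injured kidney, heme oxygenase-1 and NRF2 are known for protecting cells against heme and oxidants.

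The cells were primary renal myofibroblasts of C57BL/6J mice, grown out of kidney pieces and sequenced as bulk poly-A RNA. The 4 groups were WT untreated, WT with TGFβ1, WWP2-/- untreated and WWP2-/- with TGFβ1, with 5 libraries each (the labels call the WWP2-/- genotype KO, and untreated cells untreated in the titles and control in the treatment field). WWP2-/- and WT mice were littermates from heterozygous pairs, and the knockout is germline, so every cell of the kidney carries it. The labels give neither age, sex, dose nor duration. The study gives the dose and duration of TGFβ1 for its bulk RNA sequencing, and states in general that data points were individual mice or cells from individual mice, but the labels tie no library to a mouse.

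Library totals were between 47520759 and 73063697 counts. Levels are given as CPM, counts scaled by edgeR to the size and composition of each library. Wwp2 was between 50.0 and 59.9 CPM in the 10 WT libraries and between 17.0 and 22.7 CPM in the 10 WWP2-/- libraries, so the transcript was reduced and not absent, and no library went against its genotype label. Among the WWP2-/- cells, 1 untreated library (replicate 3) and 1 TGFβ1 library (replicate 1) stood apart. Each was the other's nearest library over all genes (r = 0.998 on log2 CPM), although their treatments differ. No label says whether they came from the same culture, so they may not be 2 independent observations. Their Acta2, which encodes α-smooth muscle actin, a marker of myofibroblasts, was at 38.9 and 50.4 CPM, against 1020 to 3430 CPM in the other 18. Markers of fibroblasts and myofibroblasts did not all go this way. Of 12 on a list that includes Acta2, 3 were below all 18 others in both libraries and 1, Dcn, was above. The sum of the 12 was 4637 and 5778 CPM, against 6137 CPM or more in the other 18. Both libraries were above all 18 others for 15.8% of the genes tested and below all of them for 13.6%. Xist, the transcript of the inactive X, was at 291 and 225 CPM in them, whereas 1 other WWP2-/- library had it above 1 CPM (33.6 CPM, untreated replicate 1) and 8 of 10 WT libraries had it at 108 CPM or more and the other two near 0. Comparisons are therefore given over 20 libraries and over the other 18. In bulk RNA, a change in the share of a cell type cannot be told apart from a change in the RNA of each cell.

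The genes lie on 5 chromosomes (GRCm38). Hmox1 is at chr8:75093621-75100589 on the forward strand, Nqo1 at chr8:107388225-107403206 on the reverse strand, Nfe2l2 at chr2:75675513-75704641 (reverse), Srxn1 at chr2:152105516-152111376 (forward), Slc7a11 at chr3:49892526-50443614 (reverse), Gclm at chr3:122245557-122270732 (forward), Keap1 at chr9:21229730-21239361 (reverse), Gclc at chr9:77754535-77794485 (forward) and Txnrd1 at chr10:82833951-82897712 (forward). Keap1 shares 510 exon bases with Gm16754 on the opposite strand and Gclm shares 540 with Gm17494 and Gm6061, and the strand setting of the counting is not given (Gm16754 averaged 0.888 CPM). The start of Wwp2 (chr8:107436365-107558595, forward) lies 33.2 kb from the nearer edge of Nqo1, which is the start of that reverse-strand gene.

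Stretches before the transcription start are printed for the members whose window held a match to the element that NRF2 and MAF proteins read or to an AP-1 site, whatever the level of the gene did. RefSeq promoter windows (GRCm38.p6, 250 bases before to 50 bases after each start) were matched for 7 of the 9 genes, with 9 windows in all. Hmox1 and Gclc had no entry. The core of the antioxidant response element, TGACNNNGC on either strand, was in 4 of the 9 windows, 1 for each of 4 genes, and in 12.4% of all 32851 windows. The AP-1 site TGANTCA, a palindrome, was in 1 of the 9 and in 7.81% of all windows. Capitals mark the match, and each line runs 5′ to 3′ along the gene. The match was on the strand of the gene for Nfe2l2, 240 bases before the start, and on the opposite strand for Gclm (134 bases before) and Txnrd1 (92 bases before). Txnrd1 had 3 windows, of which 1 held the match. That window (chr10:82858956-82859255) lies inside the gene as annotated, so its start is not the first start of the gene.
Nfe2l2, chr2:75704881-75704913, reverse strand: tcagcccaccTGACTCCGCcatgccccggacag
Gclm, chr3:122245409-122245445, forward strand: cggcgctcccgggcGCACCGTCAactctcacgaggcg
Txnrd1, chr10:82859100-82859136, forward strand: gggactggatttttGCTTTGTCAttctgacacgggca
Srxn1, chr2:152105408-152105442, forward strand: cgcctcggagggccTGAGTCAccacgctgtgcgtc
Srxn1, chr2:152105465-152105499, forward strand: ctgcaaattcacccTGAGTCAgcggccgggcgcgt
The first 3 lines hold the antioxidant core and both Srxn1 lines hold the AP-1 site, 102 and 45 bases before the start. Srxn1 also held an antioxidant core, on the opposite strand, 28 bases past the start. The windows of Keap1, Nqo1 and Slc7a11 held neither set of letters. A match is only a match of letters, and its absence from so short a window says nothing of the factor.

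In untreated WT cells, levels per length placed Hmox1 first, at 263±110 CPM per kb of exon (mean±SD, n=5). Gclc followed at 85.8±52.0, then Nfe2l2 at 51.2±3.22, Txnrd1 at 51.1±11.8, Srxn1 at 50.5±11.8, Gclm at 34.9±14.3, Nqo1 at 25.1±10.2, Keap1 at 15.0±2.61 and Slc7a11 at 1.90±0.948 CPM per kb. From Gclc down to Keap1, the libraries of each gene overlapped those of its neighbour in this order. The highest Gclc and the lowest Hmox1 library were both at 164, and all Slc7a11 libraries were below all Keap1 libraries. Relative to the mean, Nfe2l2 and Keap1 varied least in these cells and Gclc most, from 26.6 to 164 CPM per kb.

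Hmox1 varied more between WWP2-/- libraries than between WT libraries. In untreated WT cells its 5 libraries were at 322, 358, 713, 619 and 288 CPM. With TGFβ1, WT libraries were at 207, 190, 188, 278 and 189 CPM, all below every untreated one. In untreated WWP2-/- cells Hmox1 was at 1557, 369, 7653, 252 and 139 CPM, so that the highest and the lowest library of the whole series belonged to the same group. With TGFβ1, WWP2-/- libraries were at 7055, 579, 273, 290 and 319 CPM. The libraries set apart were more than an order of magnitude above the median of the other 18 (289 CPM; their mean was 25.4 times it), and untreated WWP2-/- replicate 1 was the highest of those 18.

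**Figure D1:**
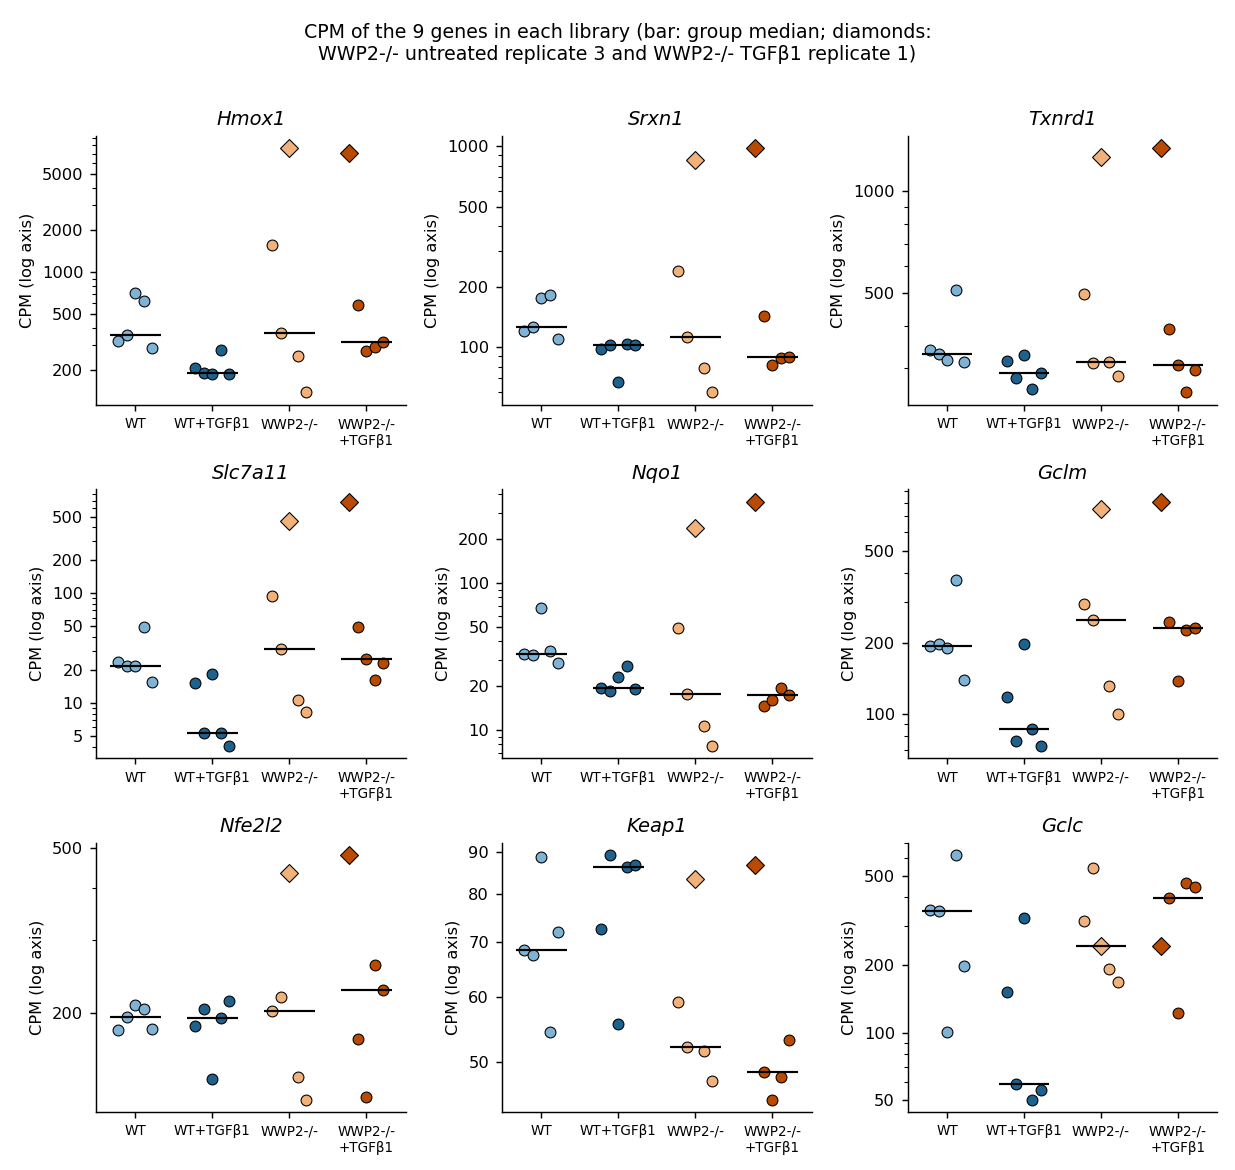
CPM of each of the 9 genes (y axis, log scale) in the 4 groups (x axis), 1 point per library and a bar at the group median, n = 5 each. The diamonds, WWP2-/- untreated replicate 3 and WWP2-/- TGFβ1 replicate 1, are the highest points of 7 panels (7653 and 7055 CPM for Hmox1), but not of Keap1 (83.5 and 86.7 CPM) or Gclc (243 CPM in both).

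Srxn1 encodes sulfiredoxin, which restores overoxidised peroxiredoxins, and its levels followed those of Hmox1 library by library. WT cells were at 119.6, 126.5, 175, 181 and 109 CPM untreated and at 97.9, 103, 67.1, 103 and 102 CPM with TGFβ1. WWP2-/- cells were at 240, 112, 853, 79.1 and 59.4 CPM untreated and at 977, 143, 81.8, 87.8 and 89.1 CPM with TGFβ1. As for Hmox1, the 2 highest libraries were the ones set apart, the third was untreated WWP2-/- replicate 1 and the lowest was untreated WWP2-/- replicate 5. Txnrd1, the cytosolic thioredoxin reductase, was between 254 and 510 CPM in 18 libraries and at 1263 and 1341 CPM in the libraries set apart, 4.16 times the median of the others.

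Slc7a11, the cystine carrier of system xc- that supplies cysteine for glutathione, had the widest relative range of the 9 genes, 168-fold over 20 libraries and 23.0-fold over 18. WT cells held 23.7, 21.75, 21.55, 49.4 and 15.65 CPM untreated and 15.2, 5.29, 18.3, 5.29 and 4.06 CPM with TGFβ1. WWP2-/- cells held 93.6, 30.9, 456, 10.6 and 8.33 CPM untreated and 684, 49.4, 25.4, 16.4 and 23.2 CPM with TGFβ1. Over the 18 libraries, 4 of 5 WWP2-/- libraries with TGFβ1 were kept, and the lowest of these (16.4 CPM) was exceeded by 1 WT library with TGFβ1 (replicate 3, 18.3 CPM).

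Nqo1, a quinone reductase and a common readout of NRF2 activity, was 15.4 times the median of the other 18 in the libraries set apart. WT cells were at 32.8, 32.45, 67.2, 34.4 and 28.4 CPM untreated and at 19.2, 18.5, 23.0, 27.3 and 19.1 CPM with TGFβ1. Untreated WWP2-/- cells were at 49.7, 17.55, 235, 10.7 and 7.78 CPM, and with TGFβ1 at 358, 14.65, 15.9, 19.4 and 17.3 CPM. Hence 3 of 5 untreated WWP2-/- libraries were below every untreated WT library, while replicates 1 and 3 were not. The protein-coding genes tested within 200 kb of Nqo1, other than Wwp2, were Nfat5, Nob1 and Psmd7, and by edgeR's quasi-likelihood test none passed in either comparison of genotypes (log2 fold changes between 0.0049 and 0.24, adjusted P between 0.651 and 0.987).

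The 2 subunits of glutamate-cysteine ligase, which makes the first step of glutathione synthesis, were not alike in the libraries set apart. Gclm, the modifier subunit, was between 72.7 and 375 CPM in 18 libraries and at 751 and 810 CPM in the libraries set apart. Gclc, the catalytic subunit, was at 243 CPM in both of these, near the median of the other 18 (256 CPM). WT cells had 352, 347, 100.3, 617.8 and 198 CPM of Gclc untreated and 151, 59.0, 324, 50.3 and 55.4 CPM with TGFβ1. WWP2-/- cells had 313, 544, 243, 192 and 167 CPM untreated and 243, 397, 123, 463 and 446 CPM with TGFβ1. The WT library with TGFβ1 at 324 CPM (replicate 3) was above the lowest of the untreated WT libraries (replicate 3, 100.3 CPM), and Gclc thus overlapped between all groups.

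The regulators moved less. Nfe2l2 was between 123 and 261 CPM in 18 libraries and at 437 and 482 CPM in the libraries set apart, 2.36 times the median of the others. Keap1 was at 68.5, 67.4, 88.6, 54.4 and 71.9 CPM in untreated WT cells and at 72.6, 89.2, 55.7, 86.2 and 86.8 CPM with TGFβ1. In WWP2-/- cells it was at 59.2, 52.2, 83.5, 51.6 and 47.5 CPM untreated and at 86.7, 48.7, 45.1, 47.98 and 53.2 CPM with TGFβ1. The libraries set apart, at 83.5 and 86.7 CPM, were the highest of their groups and within the range of WT libraries.

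WWP2-/- against WT cells with TGFβ1 asks whether these genes differ with the loss of WWP2 in cells given TGFβ1. Over 20 libraries, Slc7a11 differed most, with a log2 fold change of 4.05±1.2 (SE) between means of 160±294 and 9.63±6.61 CPM (SD, n=5). Hmox1 was next at 3.02±1.06, with means of 1703±2994 and 210±38.5 CPM. Nqo1 was at 1.99±0.97, Gclm at 1.58±0.53, Srxn1 at 1.54±0.73, Gclc at 1.38±0.56, Txnrd1 at 0.81±0.45, Nfe2l2 at 0.44±0.32 and Keap1 at -0.47±0.20. All 9 genes overlapped between the groups, and without overlap 2.59% of all genes were higher and 3.08% lower. By edgeR's quasi-likelihood test 0 of the 9 passed an adjusted P of 0.05, and 1238 of all genes did (6.07%, with 2.1% higher and 3.96% lower; with Xist in the model 353 genes were higher and 307 lower, against 429 and 809). Of these tests, 6 of the 9 had an unadjusted P below 0.05, as had 24.7% of all genes. DESeq2 called 3 of the 9 (13.1% of the 20389 genes to which it gave an adjusted P). These counts are shown for reference only, since the contrast was used to choose the genes.

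Without the libraries set apart, the value of Hmox1 went from 3.02 to 0.79±0.51, an 8.1-fold difference to a 1.73-fold one, and that of Slc7a11 to 1.56±0.63. Nqo1 changed sign to -0.36±0.40, and Srxn1 and Txnrd1 came to 0.08±0.31 and 0.08±0.17. Gclc stayed at 1.46±0.60 and Gclm was at 0.92±0.36, with Nfe2l2 at 0.06±0.19. Keap1 was at -0.68±0.14. All 4 remaining WWP2-/- libraries (45.1 to 53.2 CPM) were below all 5 WT libraries (55.7 to 89.2 CPM), as were 5.53% of all genes (5.9% were above). Xist was at most 0.0665 CPM in these WWP2-/- libraries. In the WT libraries it was at 135 to 254 CPM, except in replicate 3 (0.12 CPM), which had the lowest WT value of Keap1. Genotype and the level of Xist can therefore hardly be told apart here. When the log2 CPM of Xist entered the model over 20 libraries, Keap1 went from -0.47 to -0.12 with TGFβ1 and from -0.25 to -0.000229 in untreated cells. Over 18 libraries, 1 of the 9 genes passed an adjusted P of 0.05 in edgeR and 16.9% of all genes did (7.51% higher, 9.41% lower), which is again given for reference only. The median log2 fold change of the 9 was 1.54 over 20 libraries and 0.08 over 18, against 0.05 for all genes over 20. Marker lists of other cells differed between the same groups: over 20 libraries the median log2 fold change was 2.52 for 14 macrophage markers, 2.02 for 11 tubular markers and -2.12 for 12 fibroblast and myofibroblast markers, of which 3 passed in edgeR, all lower. No macrophage or tubular marker passed in edgeR over 20 libraries, 13 and 2 had an unadjusted P below 0.05, and DESeq2 called 11 and 2. Over the 18 libraries, 13 of the 14 macrophage markers (median 2.8) and 1 tubular marker passed as higher in edgeR, and 8 of the 12 fibroblast and myofibroblast markers passed as lower. Their part in the values of the 9 genes was not tested.

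**Figure D2:**
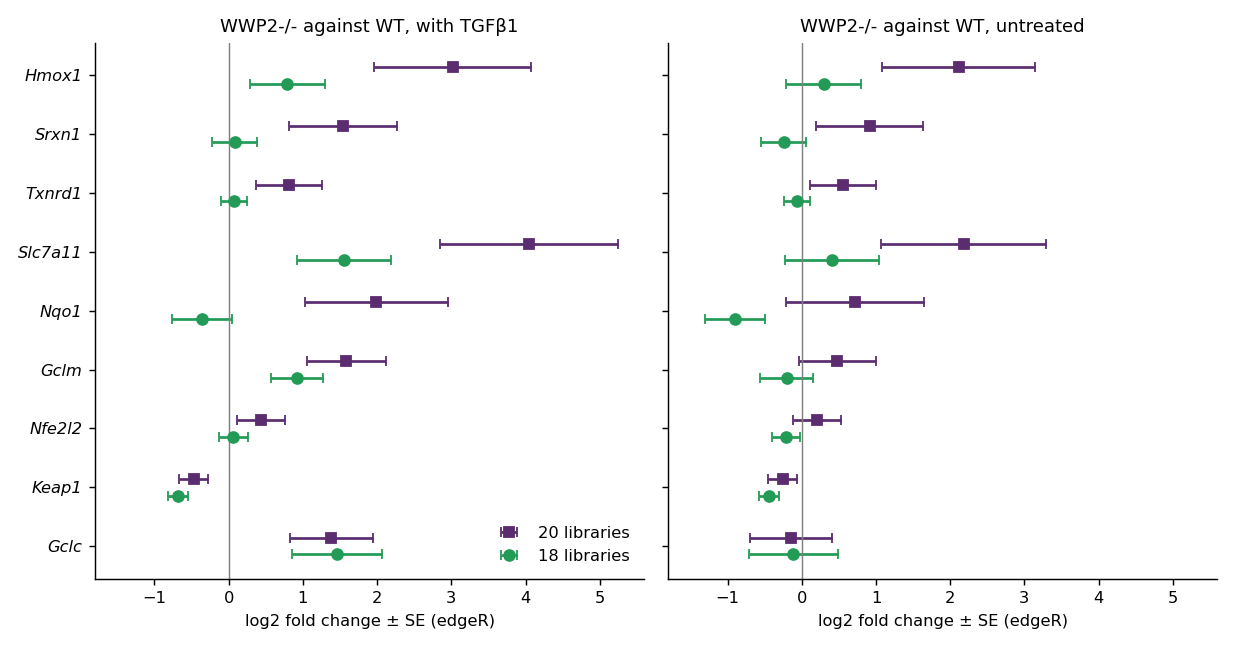
Log2 fold change of WWP2-/- over WT (x axis) for the 9 genes (y axis), with TGFβ1 on the left and untreated on the right. Squares are fits of 20 libraries, circles fits without WWP2-/- untreated replicate 3 and WWP2-/- TGFβ1 replicate 1, and bars are standard errors. Hmox1 moves from 3.02 to 0.79 and Nqo1 from 1.99 to -0.36 with TGFβ1, while Gclc moves from 1.38 to 1.46.

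Untreated WWP2-/- against untreated WT cells asks the same without TGFβ1. Over 20 libraries, Slc7a11 was at 2.18±1.11, Hmox1 at 2.12±1.03, Srxn1 at 0.92±0.72, Nqo1 at 0.72±0.94, Txnrd1 at 0.56±0.45, Gclm at 0.48±0.52, Nfe2l2 at 0.20±0.32, Gclc at -0.15±0.55 and Keap1 at -0.25±0.20 on the log2 scale. Over 18 libraries, 2 of the 9 were above 0, namely Hmox1 at 0.30±0.51 and Slc7a11 at 0.41±0.63. Nqo1 was at -0.90±0.40, Keap1 at -0.44±0.14 and the other 5 between -0.25 and -0.07. In edgeR's test 0 of the 9 passed an adjusted P of 0.05, against 148 of all genes (0.725%, with 0.103% higher and 0.622% lower; with Xist in the model 65 genes were higher and 22 lower, against 21 and 127), and 0 had an unadjusted P below 0.05, against 14.9%. DESeq2 also called 0 of the 9 and 3.64% of all genes. Over 18 libraries edgeR called 0 of the 9 and 1.32% of all genes (0.5% higher, 0.823% lower). The groups overlapped for each of the 9, where 1.5% of all genes were higher without overlap and 1.29% lower (3.72% and 2.39% over 18 libraries). Without untreated WWP2-/- replicate 3 alone, Hmox1 was at 0.33, Slc7a11 at 0.44 and Nqo1 at -0.86. Gclc rested on other libraries, with 0.23 without WT replicate 4 and -0.54 without WWP2-/- replicate 2.

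Treatment with TGFβ1 went with lower values of most of the 9 genes in WT cells. The log2 fold changes were -1.46±1.09 for Slc7a11, -1.33±0.56 for Gclc, -1.13±0.997 for Hmox1, -0.99±0.53 for Gclm, -0.87±0.94 for Nqo1, -0.59±0.72 for Srxn1, -0.30±0.45 for Txnrd1, -0.06±0.32 for Nfe2l2 and 0.15±0.19 for Keap1. Their median was -0.87, against 0.02 for all genes. For Hmox1, Nqo1 and Srxn1, each of the 5 treated libraries was below each of the 5 untreated ones, which held for 0.76% of all genes, while 0.588% were higher without overlap. In edgeR's test 0 of the 9 and 0 of all genes passed an adjusted P of 0.05, and 1 of the 9 and 1397 of all genes (6.85%) had an unadjusted P below 0.05. DESeq2 called 0 of the 9 and 27 genes in all (0.132%). Marker lists moved with these groups too, with a median of -2.44 for 14 macrophage and -2.26 for 11 tubular markers, none past the threshold in edgeR or DESeq2 (13 and 3 with an unadjusted P below 0.05), and their part in the lower values was not tested. The comparison with WWP2-/- cells under TGFβ1 uses the same 5 WT libraries, so the lower values there and the higher values of WWP2-/- cells with TGFβ1 are not separate observations.

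In WWP2-/- cells the values depended on which of the libraries set apart was present. TGFβ1 against untreated gave Hmox1 a log2 fold change of -0.23±0.98 over 20 libraries, -2.43 without TGFβ1 replicate 1, 1.56 without untreated replicate 3, and -0.64±0.54 without both. Nqo1 ranged likewise from -1.92 to 1.99, and Slc7a11 from -2.05 to 2.15. Across the 9 genes the median was 0.11 over 20 libraries and -0.16 over 18. In edgeR's test 0 of the 9 passed, as did 0 of all genes (713 with an unadjusted P below 0.05, 3.49%, none of them among the 9), and DESeq2 called 49 genes (0.291%), none of the 9. None of the 9 was without overlap, as 0.167% of all genes were in the higher and 0.211% in the lower direction (1.68% and 2.59% over 18 libraries). The interaction of genotype and treatment had a median of 0.90 over the 9 genes and 0.49 over 18 libraries. For Hmox1 the interaction was 0.90±1.40, with -1.30 and 2.69 when TGFβ1 replicate 1 or untreated replicate 3 was left out, and for Gclc it was 1.53±0.78 over 20 and 1.57±0.86 over 18 libraries. In edgeR's test of the interaction 0 genes passed (1424 with an unadjusted P below 0.05, 6.98%, 0 of the 9), and DESeq2 called 10 (0.049%), none of the 9.

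The likeness of each gene to Hmox1 was measured as the Pearson correlation of log2(CPM + 1) over libraries, among 13519 genes with a mean of at least 1 CPM. It is a description, and the points share libraries and their composition. Srxn1 had the highest r of all 13519 genes, 0.977 over 20 libraries, 0.908 over 18, and 0.987 for deviations from group means. Txnrd1 had 0.942 over 20 and 0.744 over 18 libraries, Slc7a11 0.939 and 0.807, Nqo1 0.914 and 0.68, and Gclm 0.874 and 0.71. Nfe2l2 dropped from 0.81 to 0.358. Keap1 and Gclc had low values in both, 0.32 and -0.0552 for Keap1 and 0.238 and 0.379 for Gclc. For deviations from group means, however, r over 20 libraries was 0.761 for Keap1 and 0.84 for Nfe2l2 (0.308 and 0.427 over 18), against -0.0238 for Gclc. Thus by Pearson r 5 targets still varied with Hmox1 in the 18 libraries, and Nfe2l2, Keap1 and Gclc less so. By rank (Spearman) over 18 libraries, Gclc at 0.507 was close to Nqo1 (0.542) and Txnrd1 (0.587). Srxn1, Slc7a11 and Gclm were at 0.858, 0.783 and 0.75, Nfe2l2 at 0.389 and Keap1 at -0.0114.

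**Figure D3:**
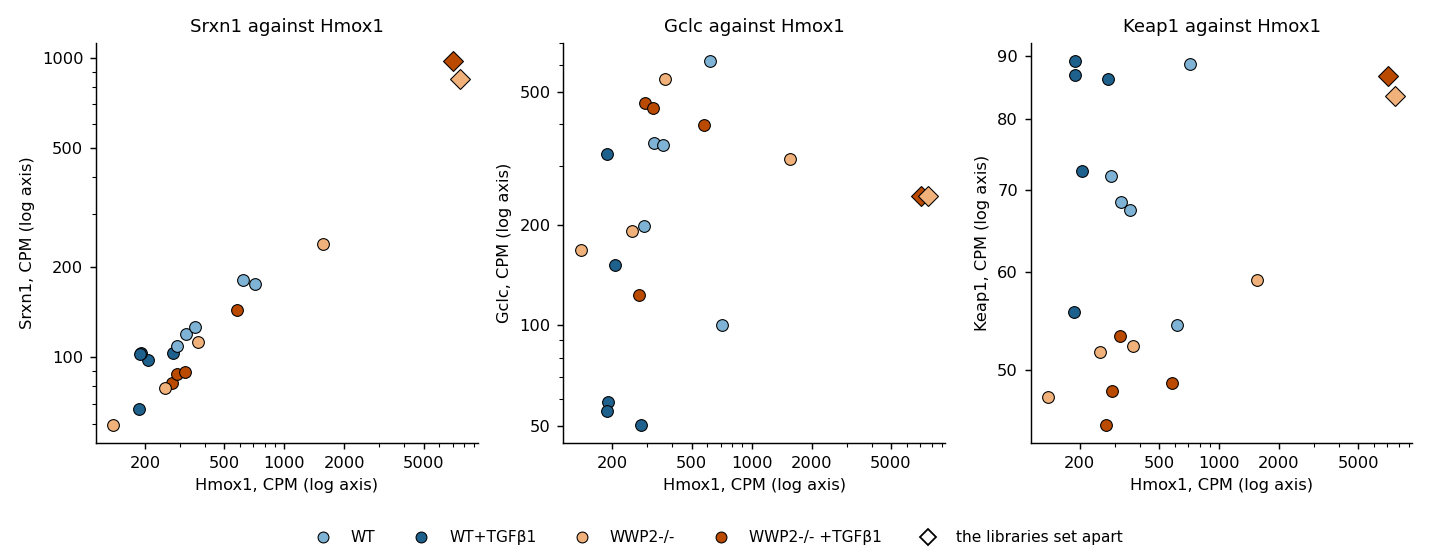
Srxn1, Gclc and Keap1 (y axes, CPM, log scale) against Hmox1 (x axes, CPM, log scale), 1 point per library coloured by group, with diamonds for the libraries set apart. Srxn1 follows Hmox1 from 59.4 to 977 CPM (r = 0.977), whereas Gclc (r = 0.238) and Keap1 (r = 0.32) do so much less.

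After Srxn1, the genes with the highest correlation with Hmox1 over 20 libraries were Gbe1 (0.967), Prl2c3 (0.964), Gm14221 (0.959) and Hilpda (0.957). Gbe1, the glycogen branching enzyme, was between 17.4 and 40.4 CPM in 18 libraries and at 104 and 119 CPM in the libraries set apart. Prl2c3, a proliferin of the prolactin family, was between 0.259 and 48.1 CPM in 18 libraries and at 278 and 418 CPM in these, and its near-identical copies make its own count uncertain. Gm14221 is a noncoding transcript (14.8 and 17.4 CPM against at most 3.22), and Hilpda encodes a lipid droplet protein (27.1 and 24.4 CPM against at most 12.5). For Gbe1, Prl2c3, Gm14221 and Hilpda, the highest of the 18 libraries was untreated WWP2-/- replicate 1. Among pairs of members, Gclm and Slc7a11 had r = 0.953 over 20 and 0.908 over 18 libraries, and Gclc and Gclm had 0.65 and 0.891. Gclc and Keap1 varied in opposite directions (r = -0.6 and -0.68).

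Gclc and Keap1, and over 18 libraries also Gclm and Slc7a11, varied with markers of other cell types, and over 18 libraries Hmox1 did so more weakly. Of 12 tubular epithelial markers, 11 were tested (all but Umod), and their summed level was 52.6 to 1122 CPM in untreated WT, 51.0 to 359 in WT with TGFβ1, 20.6 to 1587 in untreated WWP2-/- and 19.5 to 1474 CPM in WWP2-/- with TGFβ1. Of 16 macrophage markers, 14 were tested (all but Cd163 and Marco), with 169 to 4210, 84.9 to 484, 95.7 to 1928 and 93.6 to 3764 CPM in the same order. The lowest tubular sums were those of the libraries set apart, at 20.6 and 19.5 CPM. Havcr1, Cdh16 or Pax8 led the tubular sum in each library and Lyz2 the macrophage sum. Counts of 0 occurred for Cdh1 in 1 library, for Krt8 in 2, for Cd5l in 2 and for the endothelial Tie1 in 3. Of 6 endothelial markers all were tested, and their sum was between 6.08 and 169 CPM, lowest in the libraries set apart (6.08 and 7.61 CPM).

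Over the 18 libraries, Gclc had r = 0.952 with the tubular sum, 0.889 with the macrophage sum and -0.887 with the sum of 12 fibroblast and myofibroblast markers, on log2 scales. With the libraries set apart included, r was 0.715, 0.765 and -0.784. Gclm had 0.754, 0.799 and -0.847 over 18 libraries, but -0.0408, 0.157 and -0.872 over 20. Keap1 had -0.73, -0.643 and 0.796 over 18 and -0.773, -0.706 and 0.416 over 20 libraries. Slc7a11 had 0.619, 0.582 and -0.705 over 18 and -0.222, -0.0733 and -0.767 over 20 libraries. Over the 18 libraries Hmox1 had 0.254, 0.336 and -0.428, and Srxn1 0.0528, 0.139 and -0.15. By rank (Spearman) over the 18 libraries, Hmox1 had 0.457, 0.581 and -0.457. Slc7a11 had 0.628, 0.641 and -0.682 by rank, and Srxn1 0.156, 0.284 and -0.0877. By Pearson r over 20 libraries, Hmox1 had -0.432, -0.243 and -0.634, and Srxn1 -0.529, -0.348 and -0.521. With Acta2 alone, r over 20 libraries was -0.871 for Hmox1 and -0.918 for Srxn1, and over 18 it was -0.293 and -0.51. In WT cells with TGFβ1, Gclc was highest in replicate 3, whose tubular and macrophage sums (359 and 484 CPM) were also the highest of its group. What these cells contribute to the levels of Gclc, Gclm, Slc7a11, Keap1, Hmox1 and Srxn1 was not tested.

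**Figure D4:**
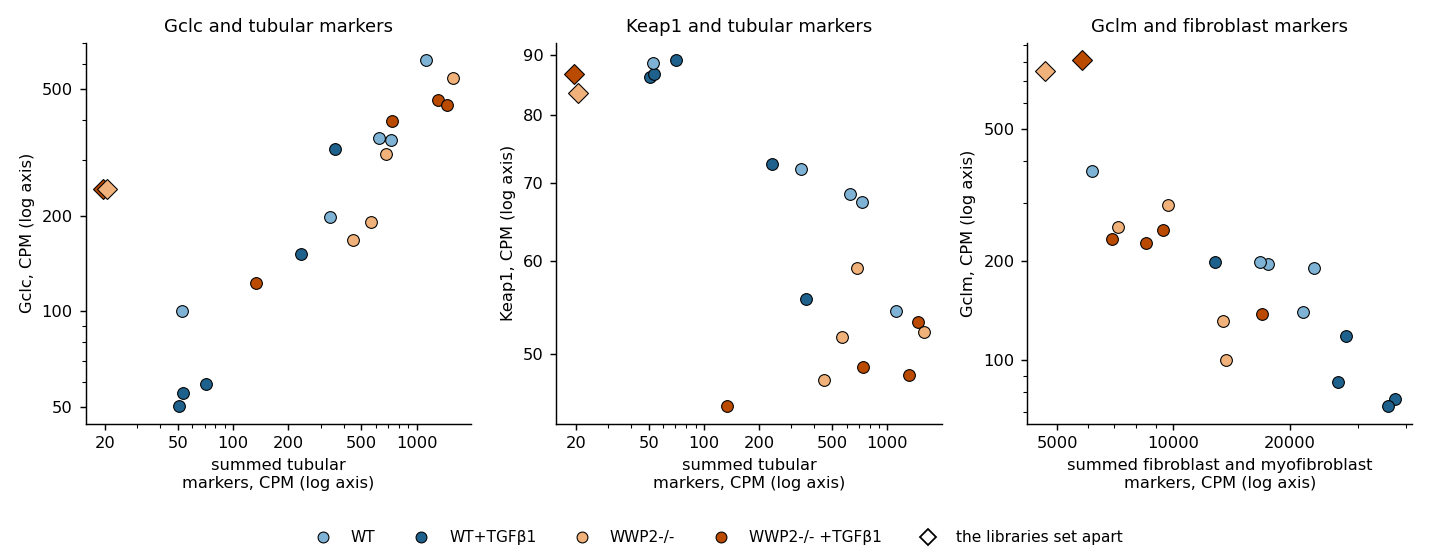
Gclc and Keap1 against the summed tubular markers, and Gclm against the summed fibroblast and myofibroblast markers (all axes CPM, log scale), 1 point per library, coloured by group. Gclc rises from 50.3 to 617.8 CPM with the tubular sum over 18 libraries (r = 0.952), and the diamonds lie off this line at 243 CPM with tubular sums of 20.6 and 19.5 CPM.

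Genes of the wider pathway were read from lists of glutathione, thioredoxin, NADPH, heme and iron, detoxifying, peroxide and regulatory genes, of which 108 of 109 were tested (all but Gpx2). In the libraries set apart, 30 of the 108 were above all 18 others and 16 below, against 15.8% and 13.6% of all genes, while 7 of the 9 members were above and 0 below. The 30 included 7 of 24 glutathione genes (among them Gsr, Slc3a2 and Glrx), 4 of 16 thioredoxin and peroxiredoxin genes (Txn2, Prdx1, Prdx6 and Sesn2), and 3 of 7 genes of NADPH supply (G6pdx, Pgd and Taldo1). They also included 5 of 16 heme and iron genes, 4 of 19 detoxifying enzymes and exporters, Sod2 of 4 superoxide and peroxide enzymes, Sqstm1 and Slc6a9 of 5 other known targets and 4 of 17 partners and regulators (Mafg, Maff, Mafk and Btrc). Both libraries were set apart with their Hmox1 known, so these counts describe 2 libraries and test nothing.

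Single values show how far this went. Prdx6, a peroxiredoxin with phospholipase activity, was at 1590 and 1810 CPM against a median of 243 and at most 712 CPM in the other 18. Blvrb, biliverdin reductase B, was at 158 and 171 CPM against at most 42.2 CPM, and Abcc1, an exporter of glutathione conjugates, at 483 and 504 against at most 162 CPM. Sqstm1, the p62 protein that binds KEAP1, was at 4340 and 4260 against at most 2190 CPM, and Slc3a2, the partner chain of Slc7a11, at 588 and 583 against at most 268 CPM. The highest of the other 18 was untreated WWP2-/- replicate 1 for Abcc1, Sqstm1 and Slc3a2, but not for Prdx6 or Blvrb. That library stays in all fits of 18 libraries. Other genes of the same lists were within the range of the 18 libraries: thioredoxin itself (Txn1, 201 and 219 CPM, others 152 to 278), Tkt (289 and 329, others 249 to 420), Me1 (195 and 216, others 169 to 250), Hmox2 (35.3 and 37.2, others 27.1 to 47.5) and Bach1 (81.4 and 93.5, others 47.0 to 97.5).

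Lists from outside the NRF2 pathway were read beside these. ATF4 is the factor of the integrated stress response and also drives Slc7a11. Of 14 genes listed as ATF4 targets, 10 were above all 18 others in both libraries set apart and 0 below, against 15.8% and 13.6% of all genes. Atf4 itself is on this list and among the 10 (Sesn2 is on this list and among the thioredoxin genes). Chac1, a glutathione-degrading enzyme, was at 110 and 111 CPM against at most 32.5 CPM, and Ppp1r15a at 316 and 289 against at most 121 CPM. Atf4 was at 582 and 590 CPM against at most 367. For Chac1 and Ppp1r15a, but not for Atf4, the highest of the 18 others was untreated WWP2-/- replicate 1. Of 9 heat shock genes, 3 were above (Hsph1, Hsp90aa1 and Hspd1) and 0 below. By edgeR over 20 libraries 0 genes of either list passed in any comparison. With TGFβ1, WWP2-/- against WT, 3 of the 14 ATF4 targets and 2 of the 9 heat shock genes had an unadjusted P below 0.05, and DESeq2 called 1 of each, where 24.7% and 13.1% of all genes did so. What these stress genes have to do with the level of the 9 genes was not tested.

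In the test across all genes, WWP2-/- against WT with TGFβ1, 3 of the 108 wider genes were higher and 4 lower by edgeR (6.48%, against 6.07% of all genes). The median log2 fold change over the 108 was 0.13. Gsr, glutathione reductase, rose from 44.0±2.76 CPM in WT to 89±18.9 CPM in WWP2-/- cells (SD, n=5), with all WWP2-/- libraries (66.9 to 118 CPM) above all WT libraries (40.7 to 47.8 CPM), a log2 fold change of 1.02±0.21 and an adjusted P of 0.0133 in edgeR. Without the libraries set apart it was 0.89±0.17 (adjusted P of 0.00821 in edgeR), and it passed in all 10 fits that left out 1 library. Gss, glutathione synthetase, rose by 0.79±0.19 (43.3±8.18 to 74.7±12.5 CPM, adjusted P 0.0226 in edgeR), again without overlap, and failed without WT replicates 2 or 5 or when the log2 level of Xist entered the model (adjusted P 0.053 in edgeR). The macrophage markers had a median log2 fold change of 2.52 between these groups. Among WT libraries with TGFβ1, Gss was lowest in replicate 2 (34.1 CPM, macrophage sum 84.9) and highest in replicate 3 (55.4 CPM, sum 484). WWP2-/- replicate 1 went the other way, with 95.1 CPM of Gss at a sum of 93.6. What other cell types contribute to the wider genes called here was not tested. Gsr and Gss were named after their values were seen, because the rule for naming took the 3 largest changes of a list.

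Those 3 were lower. Gstt1, a theta-class glutathione transferase, fell from 13.6±7.34 to 2.02±1.14 CPM (log2 fold change -2.75±0.60, adjusted P 0.0147 in edgeR) without overlap, and passed in all 10 fits that left out 1 library but not when Xist entered the model (adjusted P 0.0824 in edgeR). Ggt5, a gamma-glutamyltransferase, fell from 12.0±5.19 to 3.11±1.91 CPM (-1.95±0.55, adjusted P 0.0451 in edgeR), and Gsta4, which conjugates lipid aldehydes, from 111±53.5 to 51.2±19.4 CPM (-1.12±0.32, adjusted P 0.0473 in edgeR). Ggt5 passed in 3 and Gsta4 in 2 of the 10 fits that left out 1 library, the latter without WT replicate 3 and without WWP2-/- replicate 1, and neither passed with Xist in the model, at adjusted P of 0.228 and 0.0946 in edgeR.

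Of the other lists, Prdx1, a peroxiredoxin whose count is uncertain because near-identical copies exist, was higher, at 1630±832 against 662±122 CPM (log2 fold change 1.3±0.35, adjusted P 0.0353 in edgeR). Without the libraries set apart it was at 0.945±0.24 (adjusted P 0.0187 in edgeR), and it passed in 3 of 10 fits that left out 1 library, those without WT replicate 3 and WWP2-/- replicates 3 or 5. The RefSeq window of Prdx1 held both motifs in 1 place, where an AP-1 site overlaps an antioxidant core on the opposite strand, and a further AP-1 site farther out:
Prdx1, chr4:116685452-116685488, forward strand: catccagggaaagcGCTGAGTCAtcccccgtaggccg
Prdx1, chr4:116685349-116685382, forward strand: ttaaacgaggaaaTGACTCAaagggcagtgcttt
Rxra, a retinoid X receptor, was lower, at 68.9±13.9 against 95.6±3.25 CPM without overlap (-0.47±0.12, adjusted P 0.0304 in edgeR), passed in 4 of 10 such fits and not with Xist in the model (adjusted P 0.0734 in edgeR). None of the heme and iron, NADPH, detoxifying, peroxide or regulator genes passed in edgeR over 20 libraries. DESeq2 called 16 of the 108, 10 higher and 6 lower, where it called 13.1% of all genes.

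In untreated cells, 1 of the 108 passed (0.926%, against 0.725% of all genes). Gsta4 fell from 170±23.9 to 60.3±21 CPM without overlap (-1.5±0.33, adjusted P 0.0432 in edgeR). It passed in 2 of 10 fits that left out 1 library, those without WT replicate 4 or WWP2-/- replicate 2, and not with Xist in the model (adjusted P 0.0666 in edgeR). The median over the 108 was -0.09. For TGFβ1 against untreated and for the interaction, 0 of the 108 passed in edgeR, where 0 of all genes did, and 0 in DESeq2. An unadjusted P below 0.05 in edgeR was found for 13 of the 108 in WT cells, for 1 in WWP2-/- cells and for 10 in the interaction. The shares of all genes were 6.85%, 3.49% and 6.98%. For WWP2-/- against WT it was found for 32 of the 108 with TGFβ1 and for 14 untreated, against 24.7% and 14.9% of all genes.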

How the data were processed

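RNA was measured as bulk poly-A RNA sequencing (paired-end) of primary renal myofibroblasts, with 5 libraries in each of 4 groups. Per the methods of the study, the authors used STAR for alignment (GRCm38) and featureCounts for counting over exons, and the deposited values are raw counts per gene and library. The strand setting is not given in the sources used here. The authors tested their counts with DESeq2.

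A gene was tested when 5 or more libraries each held 5 or more counts of it (20407 genes). The counts were fitted in R 4.3.3 with edgeR 4.0.16 (TMM scaling, quasi-likelihood test, 4 groups, 20 libraries, 16 residual degrees of freedom), and P values were adjusted over all genes by Benjamini-Hochberg with a threshold of 0.05. The script was tested on simulated data. Likeness used log2(CPM + 1). Python 3.11.15 and pandas 2.3.3 gave the per-library values. Alternatives were DESeq2 1.42.0 (Wald test and size factors), other filters (none, or 10 counts in every library), only the groups compared, a block for the replicate number, the log2 CPM of Xist in the model, a threshold of 0.01 and each library left out. Leaving out both libraries set apart was chosen after seeing the data.

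Gene names and positions came from the GENCODE annotation of GRCm38, and promoter windows from RefSeq. Within groups, no 2 libraries agreed within sampling noise. A total of 3 counts corresponds to at most 0.0631 CPM, for counting error only. The labels tie no library to a mouse or culture, so P values measure the spread between these libraries, which may be partly technical.

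The 9 genes and all lists (glutathione, thioredoxin and peroxiredoxin, NADPH supply, heme and iron, detoxifying enzymes and exporters, superoxide and peroxide enzymes, other targets, partners and regulators, ATF4 targets, heat shock genes, and macrophage, tubular, endothelial and fibroblast markers) were chosen with earlier results of these data known. Besides the 9 genes and Wwp2, the text names by rule the up to 3 genes of each redox list with the largest log2 fold change among those past the threshold with a mean of at least 1 CPM, the 5 genes most like Hmox1 and the protein-coding genes tested within 200 kb of Nqo1. Genes named because they stood above all other libraries, Gsr and Gss were chosen after their values were seen.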

Additional observations from a re-analysis of the deposited data

Results flagged for a closer look

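Each of the 9 genes was looked at in each of the 4 groups of 5 libraries (36 in all) for a single library far from the rest, with a gap of more than 0.71 of the range of the group. This marked 18, of which 12 were WWP2-/- untreated replicate 3 or WWP2-/- TGFβ1 replicate 1. Chance marks about 1 in 20 groups when values are normally distributed. CPM can be skewed (Hmox1 ran from 139 to 7653 CPM in untreated WWP2-/- cells, with a median of 369), so that rate need not hold here. The 9 genes were also chosen with these values seen and vary together, so the 36 are not independent and the number is a description. In untreated replicate 3, Hmox1 stood at 7650 CPM with the nearest library at 1560, Slc7a11 at 456 (93.6), Nqo1 at 235 (49.7), Srxn1 at 853 (240) and Txnrd1 at 1260 (497). In TGFβ1 replicate 1, Hmox1 stood at 7050 CPM with the nearest at 579, Slc7a11 at 684 (49.4), Nqo1 at 358 (19.4), Srxn1 at 977 (143), Txnrd1 at 1340 (391), Gclm at 810 (247) and Keap1 at 86.7 CPM (53.2).

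The other 6 were WT libraries. Untreated WT replicate 4 was high for Gclm (375 CPM, nearest 199), Slc7a11 (49.4, nearest 23.7) and Txnrd1 (510, nearest 340), and it also had the highest tubular sum of untreated WT cells, 1122 CPM. Untreated WT replicate 3 was high for Nqo1 (67.2 CPM, nearest 34.4). With TGFβ1, WT replicate 4 was high for Hmox1 (278 CPM, nearest 207) and WT replicate 3 was low for Srxn1 (67.1 CPM, nearest 97.9). Both untreated WT replicate 4 and TGFβ1 WT replicate 3 were the WT libraries with Xist near 0.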

How the results depend on the processing

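Counts of genes past the threshold moved with the setting. For WWP2-/- against WT with TGFβ1 the count of 1238 was 790 with no filter, 660 with Xist in the model (353 higher, 307 lower), 569 with only the groups compared, 2672 in DESeq2, 3454 without both libraries set apart, 101 at an adjusted P of 0.01, and 464 to 2702 with 1 library left out (the lowest without WT replicate 2, the highest without WT replicate 3). For untreated cells the count of 148 was 87 with Xist (65 higher, 22 lower), 1 with only the groups compared, 743 in DESeq2, 270 without both libraries set apart, 1 at 0.01, and between 1 (without WT replicates 3 or 5, or WWP2-/- replicates 1, 4 or 5) and 744 (without WT replicate 4). TGFβ1 in WT gave 0, 1 with Xist and 27 in DESeq2. TGFβ1 in WWP2-/- cells gave 0, 49 in DESeq2 and between 0 and 64 with 1 library left out (64 without untreated replicate 3), and the interaction gave 0 and 10 in DESeq2. Of the wider redox lists, the 7 genes called with TGFβ1 were 4 with no filter, 3 with only the groups compared, 16 in DESeq2, 19 without both libraries set apart, 0 at 0.01 and 2 to 17 with 1 library left out (2 without WT replicates 2 or 5, 17 without WT replicate 3). The 1 gene called in untreated cells was 0 with only the groups compared, 5 in DESeq2, 3 without both libraries set apart, 0 at 0.01 and 0 to 4 with 1 library left out (4 without WT replicate 4). The likeness to Hmox1, taken as the median correlation over the other 8 genes (0.894), was 0.681 by Spearman and 0.695 without both libraries set apart. The cause of these changes was not tested.

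The replicate number as a block gave 670 in place of 1238 and 1 in place of 148, and 0 in place of 1 for the wider lists in untreated cells. The labels share only numbers, and the deviations of same-numbered libraries had correlations between -0.498 and 0.502, so the numbers were not taken as pairs. With the block Prdx1 and Gsta4 were no longer called with TGFβ1 (adjusted P 0.0574 and 0.077 in edgeR), nor was Gsta4 in untreated cells (0.109). With TGFβ1 the log2 fold change of Hmox1 was 1.95 with the block and that of Nqo1 0.842. In untreated cells Hmox1 was at 0.955, Slc7a11 at 0.685 and Nqo1 at -0.181.

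Of the 9 genes, 62 of 63 log2 fold changes of WWP2-/- against WT with TGFβ1, and all 63 in untreated cells, stayed within 1 SD under the planned settings other than leaving a library out, where the SD itself is large because of the libraries set apart. The exception was Keap1 with Xist in the model (-0.118). In untreated cells 1 value, that of Nqo1 with the block, changed sign. That SD is not the SE printed with the fold changes. With the block, Hmox1 went from 3.02±1.06 (SE) to 1.95 with TGFβ1 and from 2.12±1.03 to 0.955 untreated. Untreated Slc7a11 went from 2.18±1.11 to 0.685 with the block. With Xist in the model, Nfe2l2 with TGFβ1 went from 0.44±0.32 to 0.814. The counts of 62 and 63 therefore do not show that the values held still.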
